A study of Mus musculus with 6 samples.

Results

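The genes described are 9 that make, degrade or answer the second messenger cyclic AMP (cAMP) in mouse osteoblasts: the adenylyl cyclases Adcy7 and Adcy9, the phosphodiesterases Pde4a, Pde4b, Pde4d and Pde7b, the transcription factors Creb1 and Crem, and the kinase Sik1. They were named as a pathway with earlier results of these data known, not chosen by a threshold on their values. They are 9 of the 19938 genes for which a probeset of the array names that gene alone. All 9 were measured, and each is represented by its probeset with the highest mean value. The study asked how osteoblasts respond to the complement fragment C5a. Osteoblasts were grown from the long bones of 3 male wild-type C57BL6/J mice aged 8 to 12 weeks, numbered 2, 4 and 5, and were differentiated in osteogenic medium for 14 days. One culture of each mouse was then left unstimulated for 4 h in normal proliferation medium, and another received recombinant murine C5a at 100 ng/ml in the same medium for 4 h. Every culture gave 1 array, 6 in all and 3 pairs, so that the replicates are separate mice and their number limits the precision.

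Adenylyl cyclases are membrane enzymes that make cAMP from ATP. They are stimulated by receptors coupled to the G protein Gs and, for several of them, inhibited by receptors coupled to Gi, and C5aR1, the receptor of C5a, is a Gi-coupled receptor. cAMP activates protein kinase A (PKA), which phosphorylates the transcription factor CREB, and phosphodiesterases end the signal by hydrolysing cAMP. In osteoblasts, cAMP is best known as the messenger of parathyroid hormone and of prostaglandin E2.

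Values are log2 intensities on the deposited scale, and a change is the C5a culture minus the unstimulated culture of the same mouse. The mean of these changes over the mice is the log2 fold change. It was tested with limma with the mouse as a block, and its standard error (SE) comes from that fit. Adjusted p-values follow Benjamini and Hochberg over all 35556 probesets. A call here is an unadjusted p under 0.05 together with a fold change of at least 1.5, the thresholds of the study's methods. By this rule Pde4d was higher with C5a and Pde7b was lower, whereas the other 7 genes did not pass. These are 2 of 9 genes, and the rule called 3.28% of all probesets, 1.71% as higher and 1.57% as lower. As the genes were chosen with earlier results known, the shares over all probesets are given for scale and test no enrichment. At an unadjusted p under 0.05 alone, 4 of the 9 genes passed (Pde4d, Pde7b, Pde4b and Adcy9), against 16.2% of all probesets. At an adjusted p under 0.05, 0 of the 9 passed, against 0.0112% of all probesets, which is 4 probesets. In 5 of the 9 genes all mice changed in one direction, upwards in 2 and downwards in 3, and this held for 36.0% of all probesets. The arrays of the 2 conditions overlapped in all 9 genes, while they did not overlap in 15.2% of all probesets. In an unpaired comparison, which leaves the mouse out of the fit, limma called 0 of the 9 genes and 2.6% of all probesets. The median change of the 9 genes was -0.05, beside 0.01 over all probesets. With 3 pairs, an exact two-sided sign-flip test of a single gene cannot go below p = 0.25.

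**Figure D1:**
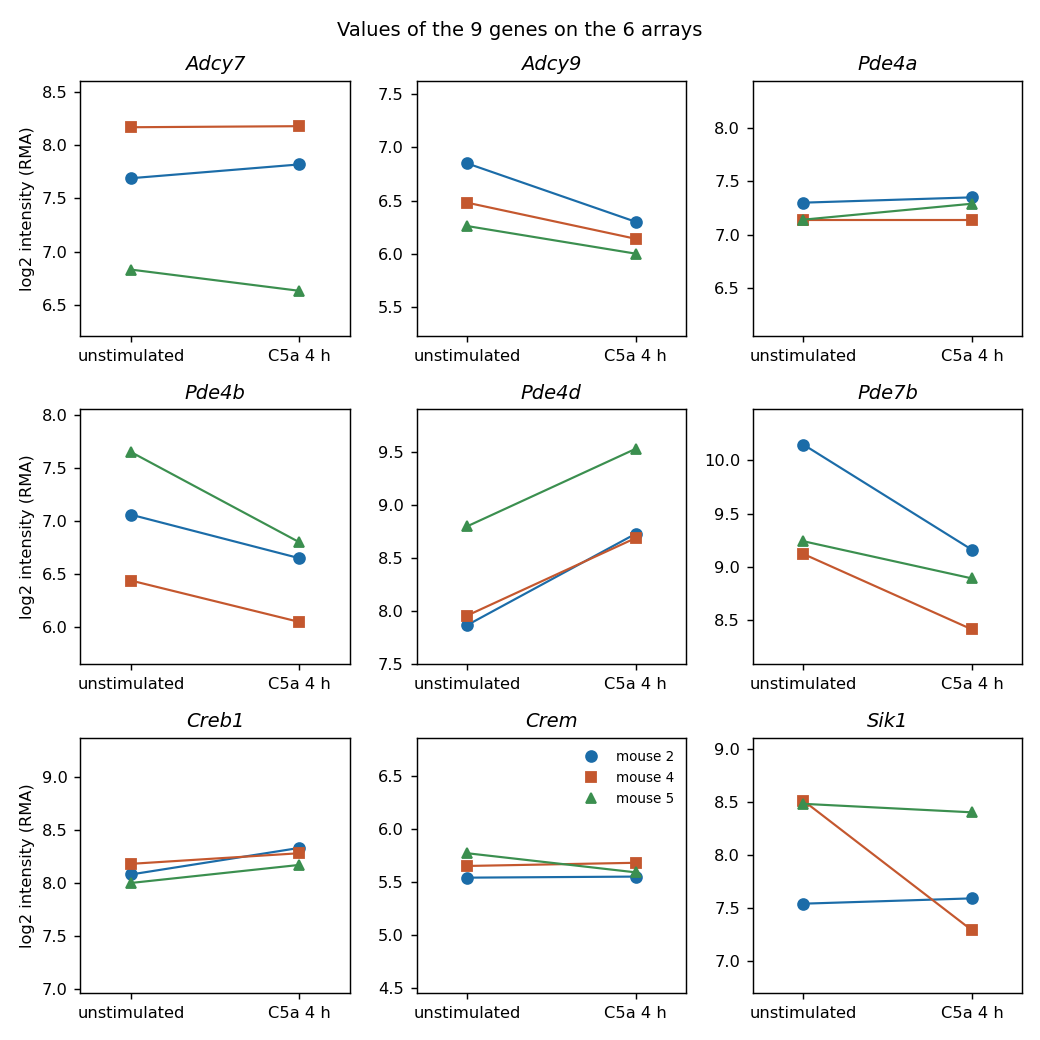
Log2 intensity (vertical axis, 2.4 log2 units in each panel) of the 9 genes in unstimulated and C5a-stimulated osteoblasts, with a line joining the 2 cultures of each mouse. The lines of Pde4d rise in all 3 mice and those of Pde7b, Pde4b and Adcy9 fall, while mouse 5 lies apart from mice 2 and 4 in Pde4d and Adcy7.

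The cultures held transcripts of osteoblasts and, mainly in mice 2 and 4, of macrophages. Col1a1, the main collagen chain of bone, lay between 13.32 and 13.79 on the 6 arrays. Alkaline phosphatase (Alpl) lay between 9.29 and 11.42, and the osteoblast transcription factor Sp7 between 6.16 and 8.73. Runx2, Bglap and Spp1 have no probeset that names them alone and were not measured. The mean over 18 markers of macrophages and osteoclasts was 9.59 and 9.97 in the unstimulated cultures of mice 2 and 4 but 6.45 in mouse 5, and 9.28, 9.54 and 6.59 with C5a. In mouse 5, 14 of these 18 markers lay more than 1 log2 unit below the mean of mice 2 and 4. Among them were the macrophage genes Cd68 (a difference of -4.54), Lyz2 (-3.97) and Csf1r (-3.31). The rest of the 18, named to complete this count, were Cx3cr1 (-0.42) and the osteoclast genes Acp5 (-0.71), Ctsk (-0.45) and Ocstamp (-0.04). By the same measure, 4 of 11 measured markers of osteoblasts and osteocytes lay more than 1 log2 unit lower in mouse 5. So did 2 of 7 measured adipocyte markers. The bone sialoprotein gene Ibsp (-4.84) was among the 4. Mouse 5 did not always lie that far below both other mice. For Alpl, also among the 4, the mouse means were 10.38, 11.32 and 9.46 in mice 2, 4 and 5, so that mouse 5 lay within 1 log2 unit of mouse 2. C5ar1 followed the order of the macrophage and osteoclast means in the unstimulated cultures, with 9.11, 9.41 and 5.17 in mice 2, 4 and 5. With C5a it had 8.84, 8.77 and 6.09, so that mouse 2 and not mouse 4 was highest. Its changes were -0.26, -0.64 and 0.92, with a log2 fold change of 0.007 (SE 0.31, adjusted p = 0.997, limma). Of 7 markers of smooth muscle cells and pericytes, 4 were higher with C5a by the same rule, namely Cnn1, Cspg4, Pdgfrb and Des, against 1.71% of all probesets. The other 3 did not pass, with changes of 0.11 for Acta2, 0.03 for Rgs5 and -0.16 for Myh11, and all 7 are named because they make up this count and not by the naming rule. Without mouse 2, 2 of the 7 were higher, and in the methods' t-test 1. The mean over these 7 ranged from 8.34 to 9.45 in unstimulated and from 9.36 to 9.67 in C5a-stimulated cultures. In the RNA of a whole culture, fewer cells of a type and less RNA per cell cannot be told apart.

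Both measured cyclases among the 9 genes stayed below the thresholds. Adcy9, a widely expressed cyclase of the plasma membrane that responds to Gs, had 6.85, 6.48 and 6.26 in the unstimulated cultures of mice 2, 4 and 5, and 6.30, 6.14 and 6.0 with C5a. It was lower with C5a in each mouse, by an amount that left the conditions overlapping only between mouse 5 unstimulated and mouse 2 stimulated. Its log2 fold change was -0.39 (SE 0.09, 95% confidence interval -0.61 to -0.16, adjusted p = 0.146, limma), or 1.31-fold lower.

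Adcy7, a cyclase enriched in cells of the blood lineage, had 7.69, 8.17 and 6.83 in the unstimulated cultures of mice 2, 4 and 5, and 7.82, 8.18 and 6.63 with C5a. Each mouse kept its level, and the mice stood further apart than the treatments. The log2 fold change was -0.02 (SE 0.09, 95% confidence interval -0.25 to 0.22, limma), so that changes below -0.25 or above 0.22 lie outside the interval. Its sign turned when mouse 5 was left out (0.069) and under quantile normalization (0.014). The level of mouse 5 minus the mean of mice 2 and 4 was -1.23. This is the mouse in which most macrophage markers and some osteoblast and adipocyte markers were low. The part of any of these cell types in the level of Adcy7 was not tested.

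Of the 10 adenylyl cyclases, none passed the thresholds in either direction, and the median change was -0.03. An unadjusted p under 0.05 (limma) was found for 2, Adcy9 and Adcy6, beside 16.2% of all probesets. Adcy6, a cyclase inhibited by Gi and by calcium, had 7.53, 7.82 and 8.07 in unstimulated cells and 8.18, 8.00 and 8.55 with C5a. Its change was thus opposite in sign to that of Adcy9, with a mean change of 0.44 (SE 0.11, adjusted p = 0.171, limma). The next smallest p-values belonged to Adcy4 (change -0.14, adjusted p = 0.535) and Adcy3 (change -0.09, adjusted p = 0.636).

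The 3 largest mean changes among the 9 genes were those of the phosphodiesterases Pde4d, Pde7b and Pde4b, and they differed in direction. Pde4d, Pde4b and Pde4a are paralogs that encode cAMP-specific phosphodiesterases of the same subfamily, the targets of rolipram, and PKA can both activate their long forms and, in many cells, raise transcription of short forms of Pde4d and Pde4b.

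Pde4d had 7.87, 7.96 and 8.80 in the unstimulated cultures of mice 2, 4 and 5, and 8.73, 8.69 and 9.53 with C5a. It was higher with C5a in each mouse, by 0.85, 0.72 and 0.73, which is close to the same step from unequal starting levels. The means were 8.21 ± 0.51 and 8.98 ± 0.48 (SD, n = 3), and the conditions overlapped because unstimulated mouse 5 lay above mice 2 and 4 after C5a. The log2 fold change was 0.77 (SE 0.07, 95% confidence interval 0.58 to 0.96, adjusted p = 0.0796, limma), a 1.71-fold rise with an interval of 1.5 to 1.94. The size stayed between 0.73 and 0.79 when each mouse was left out. The call depended on the pairing, since without the block the SE was 0.33, the adjusted p = 0.491 (limma) and the unadjusted p no longer under the threshold. Where probesets with a mean below the 40th percentile were left out, the adjusted p was 0.0356 (limma), and by that rule 1 of the 9 genes and 1.75% of the 21334 remaining probesets passed. A second probeset of Pde4d (10407124) had 5.66, 5.55 and 6.33 in unstimulated cells and 6.25, 6.14 and 7.18 with C5a, a change of 0.68 (SE 0.09, adjusted p = 0.0919, limma). The third (10407122) had means of 4.38 in unstimulated cells and 4.28 with C5a, below the array medians of 5.89 to 5.93. It was among the probesets left out as dim. Its change was -0.10 (SE 0.09, adjusted p = 0.715, limma), so that it did not show the rise of the brighter probesets.

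Pde7b, a cAMP-specific phosphodiesterase that rolipram does not inhibit, had 10.15, 9.12 and 9.24 in the unstimulated cultures of mice 2, 4 and 5, and 9.16, 8.41 and 8.89 with C5a. The changes in mice 2, 4 and 5 were -1.0, -0.71 and -0.34. All mice were lower with C5a, and the conditions overlapped because the stimulated culture of mouse 2 lay above unstimulated mouse 4. This gave a log2 fold change of -0.68 (SE 0.14, 95% confidence interval -1.05 to -0.32, adjusted p = 0.131, limma), or 1.61-fold lower with an interval of 1.25 to 2.06. Without mouse 2, the change was -0.53 and no longer reached 1.5-fold. Without the block, too, it did not pass (SE 0.32, adjusted p = 0.546, limma).

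Pde4b, which is prominent in immune cells, had 7.06, 6.44 and 7.65 in the unstimulated cultures of mice 2, 4 and 5, and 6.65, 6.05 and 6.80 with C5a. It was lower in each mouse, most in mouse 5. The mean change of -0.55 (SE 0.12, 95% confidence interval -0.86 to -0.24, adjusted p = 0.14, limma) fell just short of 1.5-fold, and it passed the thresholds when mouse 2 (-0.62) or mouse 4 (-0.63) was left out. Pde4d and Pde4b thus changed in opposite directions in the same cultures. The change of Pde4d exceeded that of Pde4b by 1.26, 1.11 and 1.59 log2 units in mice 2, 4 and 5, a difference that was not tested.

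Pde4a, the remaining member of the Pde4 subfamily among the 9 genes, had 7.30, 7.14 and 7.14 in unstimulated cells of mice 2, 4 and 5, and 7.35, 7.14 and 7.29 with C5a. Its log2 fold change was 0.07 (SE 0.07, 95% confidence interval -0.12 to 0.26, limma), an interval that does not reach 1.5-fold in either direction.

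**Figure D2:**
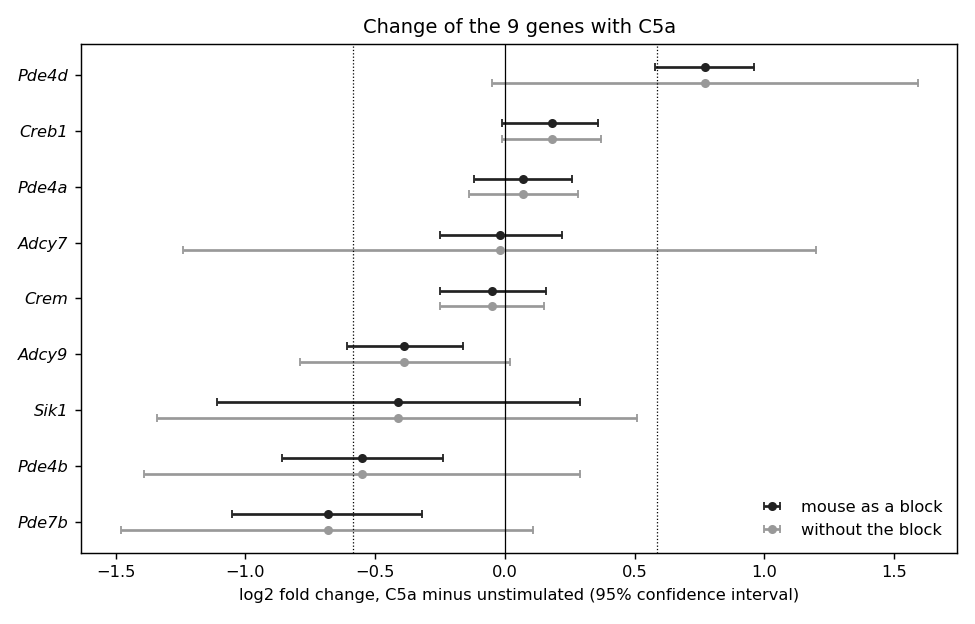
Log2 fold change (horizontal axis, C5a minus unstimulated, limma) of the 9 genes with 95% confidence intervals, in black with the mouse as a block and in grey without it, with dotted lines at 1.5-fold. With the block, the intervals of Pde4d, Adcy9, Pde4b and Pde7b leave out 0, and without it each of the 9 intervals includes 0.

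The promoters of the 4 genes with an unadjusted p under 0.05 are shown because CREB binds the cAMP response element, the palindrome TGACGTCA, or its half-site TGACG, which reads CGTCA on the other strand and is contained in the palindrome. The sequences are from RefSeq (GRCm38.p6), run 5′ to 3′ on the strand of the gene and cover 250 bases before to 50 after an annotated start, with half-sites in capitals. The windows are Pde4d at chr13:108653927-108654226 (plus strand), Pde7b at chr10:20548279-20548578 (minus strand), the first of 4 windows of Pde4b at chr4:102421305-102421604 (plus strand) and Adcy9 at chr16:4420449-4420748 (minus strand).
Pde4d: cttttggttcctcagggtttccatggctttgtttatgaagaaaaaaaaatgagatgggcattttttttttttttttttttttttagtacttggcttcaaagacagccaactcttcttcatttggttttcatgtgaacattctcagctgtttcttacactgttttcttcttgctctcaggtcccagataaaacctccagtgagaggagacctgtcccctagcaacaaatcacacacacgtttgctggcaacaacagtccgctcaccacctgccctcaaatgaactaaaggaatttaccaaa
Pde7b: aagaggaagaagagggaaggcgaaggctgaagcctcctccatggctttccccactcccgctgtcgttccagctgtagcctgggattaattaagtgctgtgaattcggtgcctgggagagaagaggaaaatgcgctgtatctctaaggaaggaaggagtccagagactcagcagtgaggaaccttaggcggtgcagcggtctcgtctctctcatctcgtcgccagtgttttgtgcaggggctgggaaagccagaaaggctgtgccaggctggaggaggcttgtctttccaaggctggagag
Pde4b: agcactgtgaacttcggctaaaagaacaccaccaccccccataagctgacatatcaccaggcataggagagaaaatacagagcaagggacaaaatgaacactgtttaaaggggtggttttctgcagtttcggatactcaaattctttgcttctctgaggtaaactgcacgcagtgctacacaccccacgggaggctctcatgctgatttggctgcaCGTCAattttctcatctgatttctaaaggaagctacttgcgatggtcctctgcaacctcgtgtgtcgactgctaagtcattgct
Adcy9: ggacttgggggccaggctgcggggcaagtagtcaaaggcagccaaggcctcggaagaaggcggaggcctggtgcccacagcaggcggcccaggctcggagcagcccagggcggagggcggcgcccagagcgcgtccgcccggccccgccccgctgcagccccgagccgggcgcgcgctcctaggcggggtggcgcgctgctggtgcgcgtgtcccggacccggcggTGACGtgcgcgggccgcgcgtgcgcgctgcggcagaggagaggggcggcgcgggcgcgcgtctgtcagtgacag
The windows of Pde4d and Pde7b, the 2 genes past the thresholds, held neither motif. The printed window of Pde4b held a half-site that begins 34 bases before the start, and that of Adcy9 a half-site that begins 24 bases before it. The windows of Pde4b that are not printed held neither motif. Windows were found for 7 of the 9 genes, 14 in all, and none for Crem or Sik1, whose promoters were thus not examined. The full element was in 0 of these 14, against 1.79% of 32851 windows of all genes. A half-site was in 4 of the 14, against 20.8% of all windows, and the other 2 were windows of Adcy7 and Pde4a. A match is a description of the letters, and Pde4b and Pde4d have several transcripts that start elsewhere, not all of them in these windows.

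Among all 16 phosphodiesterases that hydrolyse cAMP, 4 were higher with C5a past the thresholds (Pde3a, Pde8a, Pde4d and Pde10a), 1 was lower (Pde7b) and 11 passed in neither direction, beside 1.71% and 1.57% of all probesets. The median change of the 16 was 0.003. Pde8a, a cAMP-specific enzyme of high affinity, had 9.02, 9.16 and 8.30 in unstimulated cells and 10.11, 9.84 and 9.32 with C5a, a mean change of 0.93 (SE 0.11, adjusted p = 0.0869, limma). Every C5a culture lay above every unstimulated one. Pde3a, an enzyme inhibited by cGMP, had 6.34, 7.43 and 7.56 in unstimulated cells and 8.08, 8.64 and 7.85 with C5a, a mean change of 1.08 (SE 0.28, adjusted p = 0.174, limma). Its rise was large in mice 2 and 4 and small in mouse 5 (0.29). Pde10a, which degrades both cAMP and cGMP, had 6.98 in all 3 unstimulated cultures and 7.97, 7.48 and 7.42 with C5a. Its log2 fold change was 0.64 (SE 0.13, adjusted p = 0.131, limma), and without mouse 2 it was 0.47 and no longer passed. Without the block, 3 of the 16 were higher and 0 lower, and in the methods' t-test 1 and 0. Over the 7 smooth muscle and pericyte markers given above, of which 4 were higher, the median changes were 0.96, 0.48 and 0.12 in mice 2, 4 and 5, and their part in the changes of Pde3a and the other phosphodiesterases was not tested. Of 5 phosphodiesterases specific for cGMP, none passed and 1 had an unadjusted p under 0.05 (limma), beside 16.2% of all probesets. This was Pde5a, the target of sildenafil, with a change of -0.39 (adjusted p = 0.164, limma). Pde6c and Pde6a, the cone and rod enzymes, changed by -0.05 (adjusted p = 0.858, limma) and 0.04 (adjusted p = 0.861, limma).

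**Figure D3:**
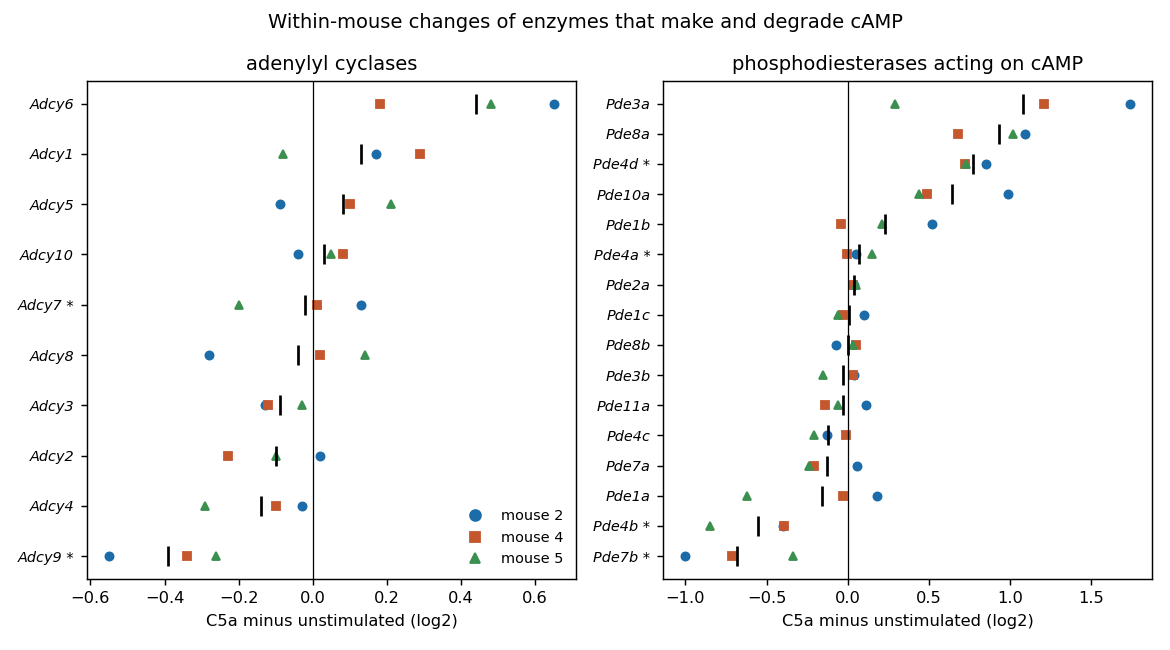
Change with C5a (horizontal axes, log2) of 10 adenylyl cyclases and 16 phosphodiesterases acting on cAMP in each mouse, with a vertical bar at the mean and an asterisk at genes of the set of 9. Pde3a, Pde8a, Pde4d and Pde10a lie to the right of 0 in all mice, and Pde4b and Pde7b to the left.

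PKA is a complex of regulatory subunits, which hold cAMP, and catalytic subunits. Of 8 measured PKA subunits and inhibitors, Prkar2a was higher past the thresholds and 0 were lower, beside 1.71% and 1.57% of all probesets, with a median of -0.008. Without mouse 2, 2 were lower. Prkar2a, a type II regulatory subunit, had 7.96, 8.07 and 7.70 in unstimulated cells and 9.07, 8.82 and 8.56 with C5a. The conditions did not overlap, and the log2 fold change was 0.90 (SE 0.09, adjusted p = 0.0869, limma). Its paralog Prkar2b had 7.77, 8.57 and 8.06 in unstimulated cells and 7.25, 7.91 and 7.55 with C5a. It was lower in each mouse, with a mean change of -0.56 (SE 0.07, adjusted p = 0.0919, limma), just short of 1.5-fold. The PKA inhibitor Pkia changed by -0.47 (SE 0.13, adjusted p = 0.187, limma). Prkaca, the main catalytic subunit gene, was not measured by a probeset of its own.

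Neither transcription factor passed the thresholds. Creb1, the founding CREB gene, whose protein is regulated mostly by phosphorylation, had 8.08, 8.18 and 8.00 in the unstimulated cultures of mice 2, 4 and 5, and 8.33, 8.28 and 8.17 with C5a. All mice were slightly higher with C5a, and the highest unstimulated value lay just above the lowest stimulated one. The mean change was 0.18 (SE 0.07, 95% confidence interval -0.01 to 0.36, adjusted p = 0.331, limma). It was the gene, of the 9, in which the mice differed least in comparison with the treatment, since in the other 8 the range of the 3 mouse means exceeded the size of the change.

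Crem encodes activators and, from an internal promoter that cAMP induces, the repressor ICER, and its probeset does not separate them here. It had 5.54, 5.65 and 5.77 in the unstimulated cultures of mice 2, 4 and 5, and 5.55, 5.68 and 5.59 with C5a. These values overlapped fully, with a mean change of -0.05 (SE 0.08, 95% confidence interval -0.25 to 0.16, limma), which turned to 0.017 without mouse 5. All values of Crem lay below the array medians of 5.89 to 5.93, which limits what a flat value can show. Of 10 CREB family factors and coactivators, none passed the thresholds and 0 had an unadjusted p under 0.05 (limma), beside 16.2% of all probesets. The median change was 0.13, and the smallest p after Creb1 belonged to Atf1 (change 0.14, adjusted p = 0.511, limma), Ep300 (change -0.16, adjusted p = 0.515) and Crtc3 (change 0.20, adjusted p = 0.586). Crtc2, a coactivator that SIK kinases hold in the cytoplasm, changed by 0.43, -0.17 and 0.27 in mice 2, 4 and 5.

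Sik1 is both a cAMP-induced gene and a kinase that phosphorylates CRTC coactivators and class IIa histone deacetylases, and PKA inhibits it. It had 7.54, 8.51 and 8.48 in the unstimulated cultures of mice 2, 4 and 5, and 7.59, 7.29 and 8.40 with C5a. The value of mouse 4 changed by -1.21, whereas mice 2 and 5 changed by 0.05 and -0.08. Its mean change of -0.41 (SE 0.27, 95% confidence interval -1.11 to 0.29, adjusted p = 0.574, limma) was -0.014 without mouse 4, so that 1 mouse decided it. Among 12 genes of SIK kinases and their partners, 1 was higher and 1 lower past the thresholds, with a median of 0.07, beside 1.71% and 1.57% of all probesets. In the methods' t-test 1 was higher and 0 lower. Sik2 had 8.24, 8.43 and 8.58 in unstimulated cells and 9.15, 8.74 and 9.15 with C5a, a mean change of 0.60 (SE 0.13, adjusted p = 0.143, limma). Mef2c, a transcription factor that class IIa deacetylases repress, had 7.53, 8.02 and 7.56 in unstimulated cells and 6.52, 7.30 and 7.22 with C5a, a mean change of -0.69 (SE 0.14, adjusted p = 0.131, limma). Both calls were lost without mouse 2, at 0.44 for Sik2 and -0.53 for Mef2c. Hdac9, one of these deacetylases, changed by -0.37 (SE 0.07, adjusted p = 0.127, limma).

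Genes that cAMP and CREB can induce included 12 that were lower with C5a past the thresholds, of 30 measured. A further 2 were higher (Pde4d and Pde10a) and 16 passed in neither direction, beside 1.57% and 1.71% of all probesets. The median change was -0.47 (-0.59, -0.91 and -0.28 in mice 2, 4 and 5), beside 0.01 over all probesets. The list holds immediate early genes that serum and growth factors induce as well, and it was written with earlier results of these arrays known. Fos, a subunit of the AP-1 transcription factor, had 11.75, 11.58 and 11.44 in unstimulated cells and 7.04, 6.56 and 6.65 with C5a, and its log2 fold change was -4.84 (SE 0.09, adjusted p = 0.00274, limma). The antiproliferative gene Btg2 had 11.88, 11.72 and 11.82 in unstimulated cells and 8.91, 8.15 and 8.70 with C5a (mean change -3.22, SE 0.13, adjusted p = 0.0326, limma). These 2 genes passed the adjusted threshold, and their conditions lay far apart. Junb, another AP-1 subunit, changed by -2.01 (SE 0.16, adjusted p = 0.0704, limma). Among the other lower genes, named after their values were seen, were the orphan nuclear receptor Nr4a1 (change -3.85, adjusted p = 0.0959, limma), the clock gene Per1 (change -0.91, adjusted p = 0.086) and the G protein regulator Rgs2 (change -1.20, adjusted p = 0.147). Not every classical target was lower. Nr4a3, also named after its values were seen, changed by -0.77, -0.96 and 1.39 in mice 2, 4 and 5, and Crem and Sik1 did not pass, as described above. Without the block, 12 of the list were lower and 1 higher, and in the methods' t-test 10 and 1. Over all alternatives that kept the 3 mice, 8 to 12 were lower. With each mouse left out, 13 or 14 were lower, and without mouse 2 only 1 was higher.

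**Figure D4:**
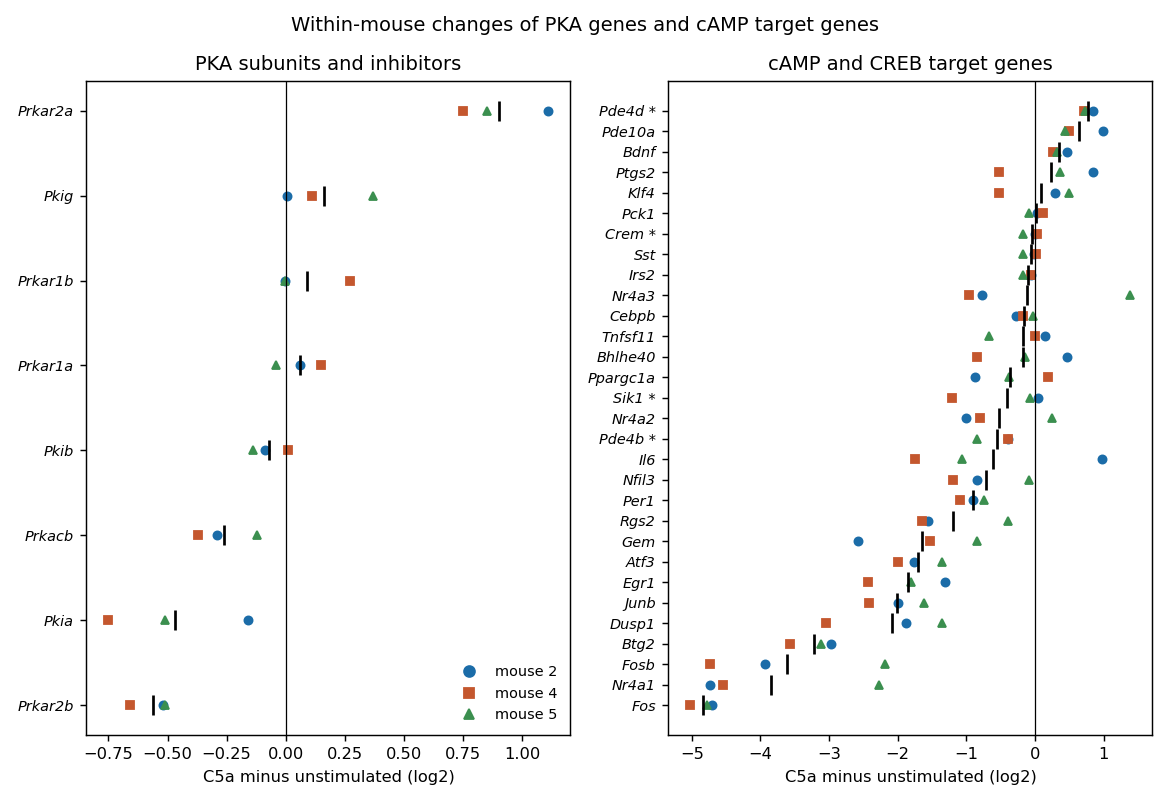
Change with C5a (horizontal axes, log2) of 8 PKA genes and 30 genes that cAMP and CREB can induce, in each mouse, with a vertical bar at the mean and an asterisk at genes of the set of 9. Prkar2a and Prkar2b lie on opposite sides of 0, and Fos, Nr4a1, Fosb and Btg2 lie furthest to the left, while Crem lies at 0.

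The range of the mouse means exceeded the size of the mean change with C5a in the 8 genes other than Creb1. A range and a mean change are unlike measures, and their difference was not tested. The level of mouse 5 minus the mean of mice 2 and 4 was 0.85 for Pde4d, 0.71 for Sik1 and 0.67 for Pde4b, against -1.23 for Adcy7 and -0.31 for Adcy9. Pde7b was highest in mouse 2, with mouse means of 9.66, 8.77 and 9.06 in mice 2, 4 and 5. Pde4a, Creb1 and Crem differed by no more than 0.19 between the mouse means. For comparison, this difference was -4.54 for Cd68, -4.84 for Ibsp and -0.27 for Col1a1. Whether the cell types that these markers stand for bear on the levels of the 9 genes was not tested.

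**Figure D5:**
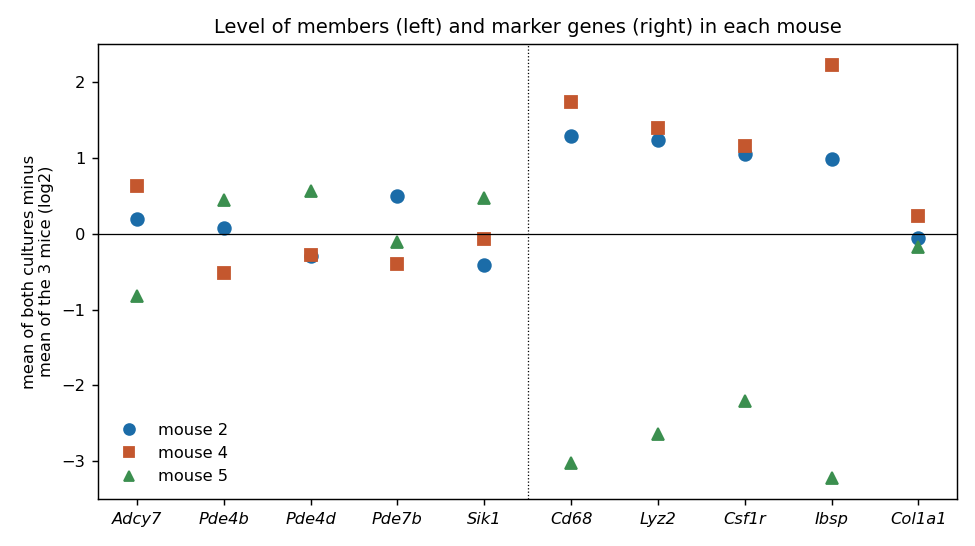
Mean log2 value of both cultures of each mouse minus the mean of the 3 mice (vertical axis) for 5 of the 9 genes and for 5 marker genes of macrophages (Cd68, Lyz2, Csf1r) and osteoblasts (Ibsp, Col1a1). Mouse 5 is lowest for Adcy7 and for the macrophage markers and Ibsp, and highest for Pde4b, Pde4d and Sik1.

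The genes with the most similar pattern were sought over the 6 arrays by Pearson's r, as a description, since the arrays share 3 mice. The pattern of Pde4d was closest to those of Qser1 (r = 0.999) and the mechanosensitive channel gene Piezo1 (r = 0.997), whose changes with C5a were 0.50 and 0.53. The pattern of Pde7b was closest to Atraid (r = 0.996) and the acid sphingomyelinase gene Smpd1 (r = 0.993), both with a change of -0.34. Pde4b was closest to the oncostatin M receptor gene Osmr (r = 0.992) and Pbrm1 (r = 0.988), Pde4a to Plekhs1 (r = 0.995) and Olfr1441 (r = 0.994), and Adcy9 to Spr (r = 0.998) and Hacd4 (r = 0.997). Adcy7, which differed by mouse, was closest to Cep55 (r = 0.993) and Tmem263 (r = 0.992), and 198 genes exceeded 0.95 with it. Creb1 was closest to Klhdc8a and Tomm5 (both r = 0.997), and Crem to Homez (r = 0.995) and Cep72 (r = 0.991). Sik1 was closest to Fam222a (r = 0.986) and Tmem51 (r = 0.984) and had the fewest genes above 0.95, 13 in all. For each of the 9 genes, the 2 nearest of the 19938 genes thus reached at least 0.984 over 6 points.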

How the data were processed

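RNA of 6 osteoblast cultures, 1 per condition from each of 3 mice, was hybridised to Mouse Gene 1.0 ST arrays. The authors ran the robust multiarray average in Affymetrix Expression Console with BRB-ArrayTools and deposited log2 values per probeset, whose array medians lie between 5.89 and 5.93. Their versions, and whether other arrays entered the normalization, are not given in the sources used here. This scale compresses changes of dim probesets. The labels give passage 2 to 3.

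All 35556 probesets were fitted with limma 3.58.1 (R 4.3.3, lmFit and eBayes) with the mouse as a block and Benjamini-Hochberg adjusted p-values. The fold change limit of the methods, written there as at most 1.5, was read as at least 1.5. The mouse pairs the cultures, as both derive from 1 animal: deviations from the group means correlated at 0.495 to 0.684 within mice and at -0.446 to -0.0353 between mice. Deviations cancel within each group, so positive correlations within mice bring negative ones between mice. By the platform annotation, 21789 probesets name 1 gene, 1621 several and 12146 none, and 21698 of the first have an Entrez ID in the RefSeq gene table. The paired fit was tested on simulated data, and the t-tests were checked against the function of R. The other steps were not tested in this way.

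The 9 genes and the lists were chosen with earlier results of these data known. Beside the 9 genes, the text names, per pathway list, genes past the adjusted threshold and up to 3 with the smallest p, the 2 genes most like each of the 9, and set receptor, G protein, PKA, CRTC and marker genes. Alternatives were the fit without the block, the methods' t-test (taken as unpaired with equal variances, which the methods do not state), a paired t-test, a variance trend with robust estimation, leaving out dim probesets, median centring, quantile normalization, other probesets of a gene and leaving out each mouse with both arrays. For 2 of the lists they were added after seeing the data.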

Additional observations from a re-analysis of the deposited data

How the results depend on the processing

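Of 92 values of the 9 genes under alternatives, 80 kept their direction and their side of the thresholds. Most of the 9 genes were not called in the main fit, so that keeping their side says little. A call was lost in 6 values, all of Pde4d or Pde7b, the only genes called. A further 4 values changed sign, and 2, both of Pde4b, gained a call. The replicate block carried the calls: without it, and in the methods' t-test, 0 of the 9 genes passed in place of 2, with unchanged fold changes of 0.77 for Pde4d and -0.68 for Pde7b, and in the paired t-test 1 passed. With dim probesets left out, 373 probesets and 1 of the 9 genes passed the adjusted threshold in place of 4 and 0. Over all probesets, the thresholds of the methods were passed by 665 in the methods' t-test and 517 in the paired t-test against 1166, and by 885 to 1754 with each mouse left out. The adjusted threshold was passed by 0 in both t-tests and by 0 to 3 with each mouse left out. Leaving out each mouse moved Crem between -0.084 and 0.017 and Adcy7 between -0.093 and 0.069. Quantile normalization turned Adcy7 to 0.014, and the dim probeset of Pde4d gave -0.10. Of the phosphodiesterases, the methods' t-test called 1 higher and 0 lower, the paired t-test 2 and 0, and the fit without the block 0 lower. With each mouse left out, 3 to 4 were higher and 1 to 2 lower. Of the cAMP and CREB targets, 10 were lower in the methods' t-test and 8 in the paired t-test against 12, and 1 was higher without the block and in both t-tests, and 1 to 3 with each mouse left out. With 2 mice left, the spread rests on 1 degree of freedom per probeset and on the prior shared by all probesets. The causes of these differences were not tested.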

Other observations

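Receptors and G proteins upstream of the cyclases were mostly below the thresholds. Of 18 measured receptors coupled to Gs, 1 was lower with C5a and 0 were higher past the thresholds, beside 1.57% and 1.71% of all probesets. Calcrl, which with RAMP proteins forms the receptors of CGRP and adrenomedullin, had 7.57, 7.55 and 7.01 in the unstimulated cultures of mice 2, 4 and 5, and 6.94, 6.43 and 6.66 with C5a. Every stimulated value lay below every unstimulated one, and the log2 fold change was -0.70 (SE 0.16, adjusted p = 0.15, limma), which fell below 1.5-fold without mouse 4 (-0.49). Ptger2, a receptor of prostaglandin E2, had 5.18, 5.17 and 5.06 in unstimulated cells and 5.57, 5.81 and 5.25 with C5a, a change of 0.41 (SE 0.11, adjusted p = 0.174, limma). The thyrotropin receptor gene Tshr, with values under 5 on all arrays, changed by -0.21 (adjusted p = 0.237, limma).

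Of 9 measured G alpha subunits, none passed the thresholds in either direction. An unadjusted p under 0.05 (limma) was found for 3, beside 16.2% of all probesets. Gnai3 and Gnai2 of the Gi family changed with opposite signs. Gnai3 had 9.60, 9.78 and 9.71 in unstimulated cells and 10.00, 10.07 and 10.07 with C5a, a change of 0.35 (SE 0.07, adjusted p = 0.13, limma). Gnai2 had 11.92, 12.05 and 11.86 in unstimulated cells and 11.48, 11.85 and 11.75 with C5a, a change of -0.25 (SE 0.09, adjusted p = 0.28, limma). Gnao1 changed by -0.47 (SE 0.12, adjusted p = 0.163, limma). Gnas, the Gs subunit gene, was not measured by a probeset of its own.

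Of 12 A-kinase anchoring proteins, which tether PKA, none passed and 0 had an unadjusted p under 0.05 (limma), beside 16.2% of all probesets. The smallest p belonged to Akap7 (change -0.20, adjusted p = 0.343, limma), Akap13 (change 0.30, adjusted p = 0.377) and Akap12 (change -0.35, adjusted p = 0.428). Of 8 other cAMP effectors, none passed and 1 had an unadjusted p under 0.05 (limma), beside 16.2% of all probesets. This was Rap1b, a small GTPase that the cAMP sensor Epac activates. It was higher in each mouse, with a change of 0.26 (SE 0.07, adjusted p = 0.188, limma), beside 0.14 for Rap1a (adjusted p = 0.408) and 0.13 for Rapgef3, which encodes an Epac protein (adjusted p = 0.625).

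C5ar2, the other receptor of C5a, had 6.98, 6.96 and 6.50 in the unstimulated cultures of mice 2, 4 and 5, and 6.77, 6.76 and 6.56 with C5a, a change of -0.12 (SE 0.09, adjusted p = 0.622, limma).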
